A study of Mus musculus with 34 samples.

Results

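Dppa2, Dppa3, Dppa4, Dppa5a, Tcl1, Utf1, Fbxo15, Jam2, L1td1 and Gdf3 are genes whose transcripts mark undifferentiated mouse embryonic stem cells (mESCs). They were taken by symbol, not by a cut on their values, from a table of 23366 genes. The choice was made with earlier results of these data known. All 10 were present and passed the filter on low values, which left 12993 tested genes. RNA-seq of J1 mESCs, a male mouse embryonic stem cell line, was compared between 2 libraries from serum/-LIF cultures and 2 libraries from serum/-LIF + Royalactin cultures. LIF is the cytokine that keeps these cells undifferentiated in serum, and it was absent from both groups. Royalactin, the major protein of honey bee royal jelly, was present at 0.5 mg/ml in the second group only. All cultures were grown on gelatin in serum medium, and the sample labels give passage 40 for each. No serum/+LIF library was analysed here, so no value can be set against cells that kept LIF.

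The genes act at different levels of the cell. Dppa2 and Dppa4 are DNA-binding proteins that work as a pair on chromatin, Utf1 is a chromatin protein at developmental genes, and Dppa3 (Stella) limits maintenance of DNA methylation. Dppa5a and L1td1 bind RNA. Tcl1 is a co-activator of the Akt kinases, Gdf3 is a secreted ligand of the TGF-beta family, Jam2 is a junctional adhesion molecule at the cell surface, and Fbxo15 is the substrate-binding subunit of an SCF ubiquitin ligase. Several of them were among the candidates screened in the first experiments that returned fibroblasts to pluripotency, and a reporter at Fbxo15 was used to find the reprogrammed cells.

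Promoter sequences from RefSeq (GRCm38.p6) were matched for 3 of the 10 genes, and all 3 are shown, without selection by expression. Among the 10, Tcl1 had the largest change and Utf1 and L1td1 the smallest. A link between these sequences and the changes was not tested. Each run is the 250 bases before the start of the transcript, read 5′ to 3′ on the strand of the gene. The regions are chr12:105222738-105222987 on the minus strand for Tcl1, chr7:139943606-139943855 on the plus strand for Utf1 and chr4:98726504-98726753 on the plus strand for L1td1. Capitals mark exact matches, on either strand, to the searched letters.
Tcl1: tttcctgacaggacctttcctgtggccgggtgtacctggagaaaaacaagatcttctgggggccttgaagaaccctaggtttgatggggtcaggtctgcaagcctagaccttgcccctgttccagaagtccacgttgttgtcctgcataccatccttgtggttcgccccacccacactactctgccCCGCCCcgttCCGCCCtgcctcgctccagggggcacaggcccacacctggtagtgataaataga
Utf1: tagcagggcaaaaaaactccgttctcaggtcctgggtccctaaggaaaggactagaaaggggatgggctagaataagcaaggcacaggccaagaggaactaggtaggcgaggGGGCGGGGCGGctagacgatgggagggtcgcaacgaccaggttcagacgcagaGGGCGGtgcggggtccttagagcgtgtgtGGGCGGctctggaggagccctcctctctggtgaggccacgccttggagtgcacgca
L1td1: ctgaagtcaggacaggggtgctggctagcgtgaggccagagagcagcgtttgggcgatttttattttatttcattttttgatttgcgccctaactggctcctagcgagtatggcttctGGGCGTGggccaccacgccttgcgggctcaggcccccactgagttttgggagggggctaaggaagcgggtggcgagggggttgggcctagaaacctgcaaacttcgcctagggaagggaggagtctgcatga
The GC box GGGCGG, bound by factors of the Sp and Klf type, occurred 2 times before Tcl1, 4 times before Utf1 and 0 times before L1td1, against 32.7% of all 32851 promoters of this length that hold it at least once. Copies before Utf1 overlapped each other by a base. The Klf core GGGCGTG was found 1 time, before L1td1, against 7.55% of all promoters. The octamer ATGCAAAT (1.6% of all promoters), the Sox core CATTGT (10.7%), the estrogen-related receptor core AAGGTCA (4.08%), the Stat site TTCNNNGAA (7.02%) and the TATA box TATAAA (12.4%) were not in these windows. CpG pairs numbered 7 before Tcl1, 14 before Utf1 and 11 before L1td1, with a median of 6 over all promoters. Dppa2, Dppa3, Dppa4, Dppa5a, Fbxo15, Jam2 and Gdf3 had no entry in the table.

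Libraries held between 14737796 and 17597818 reads on genes, and 7878527 to 15999458 without the ribosomal RNA precursor Rn45s. Rn45s took 46.6% and 21.6% of the reads of serum/-LIF replicates 1 and 2, and 38.4% and 9.08% of those of Royalactin replicates 1 and 2. Values are the deposited normalized counts, read counts scaled by 1 size factor per library. Across tested genes, the Pearson correlation of log2(normalized count + 1) was 0.876 for the serum/-LIF pair and 0.929 for the Royalactin pair. In serum/-LIF replicate 1, the library with the largest Rn45s share, 8 of the 10 genes were lower than in replicate 2. Fold changes without that library are given below. In Royalactin replicate 1, 6 of the 10 were lower than in replicate 2. The same share over all tested genes was not counted, and a link to Rn45s was not tested. With libraries scaled to equal totals without Rn45s, Tcl1, Jam2 and Fbxo15 passed the test described below (adjusted p = 0.0334, 0.00624 and 0.0352) and the others of the 10 did not.

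The labelled cell type was checked against its markers. All 7 markers of undifferentiated mESCs were detected in all 4 libraries, and their summed normalized count was 8421 to 8550 in serum/-LIF and 17744 to 18987 with Royalactin. Of these 7, Sox2, Zfp42, Esrrb and Tfcp2l1 rose, with limma adjusted p-values from 0.00273 to 0.0368 (moderated linear model, Benjamini-Hochberg adjustment over all tested genes, as for the limma values below unless another setting or tool is named). Primed epiblast markers summed to 13904 to 18387 in serum/-LIF and 10635 to 11463 with Royalactin, and 1 of 8, Fgf5, fell. Most of each sum came from Dnmt3b, with 14267 and 10581 normalized counts in serum/-LIF and 9238 and 8801 with Royalactin (limma adjusted p = 0.735). Of the 8, 7 had lower means and 1 a higher mean with Royalactin, and 3 (Fgf5, Pou3f1 and Cldn6) had an unadjusted limma p under 0.05. Fibroblast markers summed to only 244 to 290 and 156 to 234, with Pdgfrb and Postn at 0 reads in all 4 libraries. Of 4 tested, 1 had a higher and 3 a lower mean with Royalactin, and 1, Dcn, had an unadjusted limma p under 0.05. Dcn had 28 and 30 reads in serum/-LIF and 0 and 0 with Royalactin (limma adjusted p = 0.422). Primordial germ cell markers, listed because Dppa3 marks those cells, summed to 816 to 1099 and 1359 to 1508, with 0 of 7 tested past the threshold in limma or edgeR and 3 at an unadjusted p under 0.05. Trophoblast markers summed to at most 140 in serum/-LIF and 270 to 383 with Royalactin, with Elf5 at 0 reads, and primitive endoderm markers to 1287 to 2435 and 1267 to 1721. Most of the trophoblast sum with Royalactin came from Tfap2c, also a germ cell marker, which had 37.4 and 104 normalized counts in serum/-LIF and 214 and 310 with Royalactin. In such bulk samples, fewer cells of a type and less RNA per cell cannot be told apart, and the part of these shifts in the values below was not tested.

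Royalactin cultures had 3 of the 10 genes higher than serum/-LIF cultures. Tcl1 rose 14.0-fold, Jam2 6.82-fold and Fbxo15 4.65-fold, each with adjusted p under 0.05 in limma, against 0.331% of all tested genes called higher (0.493% in either direction). Dppa4, Dppa2 and Dppa5a had means 2.19-fold, 1.79-fold and 1.69-fold higher, without passing the adjusted threshold. Dppa3 and Gdf3 had smaller differences, and Utf1 and L1td1 were nearly level between the groups. Fold changes are on the log2(normalized count + 1) scale, on which changes of low genes come out too small.

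**Figure D1:**
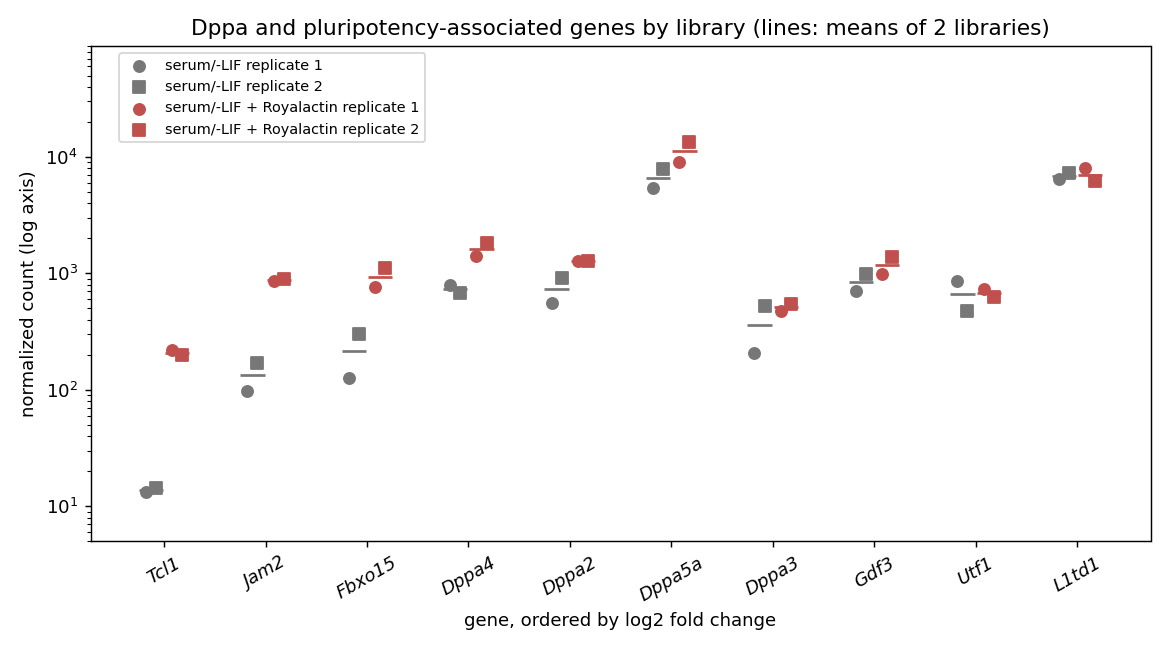
Normalized counts (log axis) of the 10 genes in each of the 4 libraries, with grey points for serum/-LIF, red points for serum/-LIF + Royalactin and lines for the means of 2 libraries. The red points stand above the grey ones by more than the replicate spread for Tcl1, Jam2, Fbxo15 and Dppa4, and the colours mix for Dppa3, Utf1 and L1td1.

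The mean was higher with Royalactin for 10 of 10 genes, against 49.4% of all tested genes. The median log2 fold change of the 10 was 0.80, with a range from 0.02 to 3.81, and the median over all tested genes was -0.01. For 7 of the 10 genes both Royalactin libraries lay above both serum/-LIF libraries, against 19.7% of tested genes, whereas the groups overlapped for Dppa3, Utf1 and L1td1. The study's methods selected genes by a p-value and a fold change, without saying whether that p was adjusted. With an unadjusted limma p under 0.05 and a 2-fold change in its place, 4 of 10 were selected (Dppa4, Tcl1, Fbxo15 and Jam2), against 3.52% of tested genes selected as higher and 7.13% in either direction. An unadjusted p under 0.05 was reached by 6 of 10, against 4.76% of tested genes that were higher at that level. The genes were chosen with earlier results of these data known, so these counts are descriptions. The number of the 10 that passed was 2 in edgeR on recovered reads, against 0.292% of tested genes called higher, 4 in DESeq2, against 1.00%, and 6 in limma after a correction for GC content and exon length, against 1.15%.

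**Figure D2:**
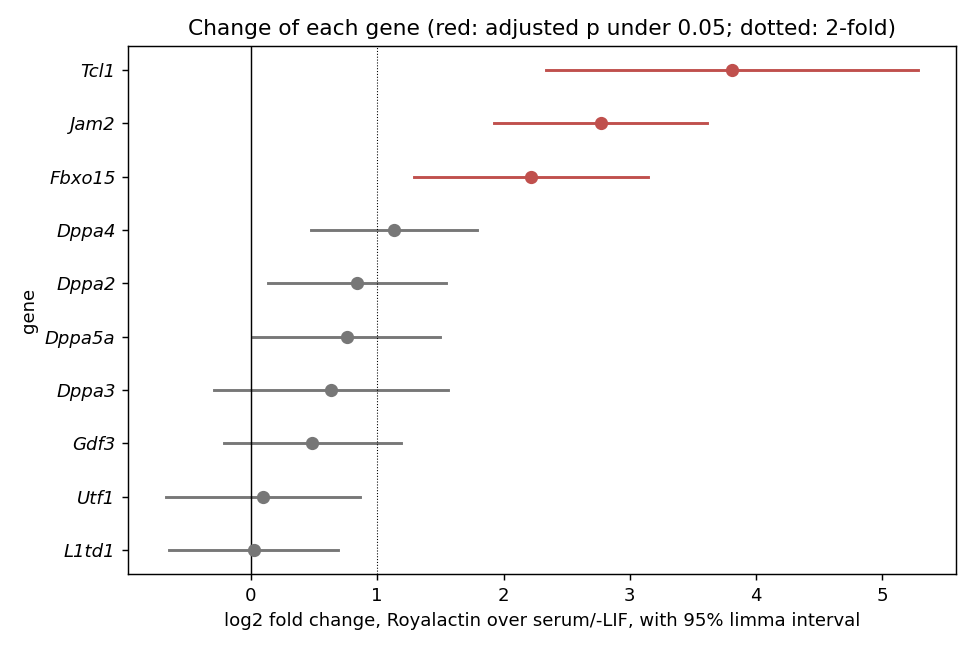
Log2 fold change of each gene, serum/-LIF + Royalactin over serum/-LIF, as points with 95% limma intervals, red where the adjusted p-value is under 0.05. Intervals of Tcl1, Jam2 and Fbxo15 lie wholly above a 2-fold change (dotted line), and those of Dppa3, Gdf3, Utf1 and L1td1 include 0.

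Tcl1, the Akt co-activator (chromosome 12, 106454967 to 106460947 of mm9, minus strand), had the lowest level of the 10 in serum/-LIF, at 13.4 and 14.5 normalized counts, from 10 and 14 reads. In the Royalactin replicates it had 219 and 198 normalized counts, from 218 and 287 reads. The groups were far apart and the replicates of each differed by at most 1.11-fold. The log2 fold change was 3.81 (standard error 0.68, 95% interval 2.34 to 5.28, limma adjusted p = 0.0261), rank 76 from the highest among tested genes. No 75-base tile of its exons matched another place in the genome. The adjusted p was above 0.05 with a pseudocount of 0.1 (0.0602) and with no filter on low values (0.114) and without the trend of the variance (0.0703), and over 17 alternatives it ranged from 5.28e-06 to 1.00.

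The Tcl1b genes of the same family had few or no reads. They lie next to Tcl1 on chromosome 12, on the opposite strand, with Tcl1b4 at 9.76 kb. Tcl1b1, Tcl1b3 and Tcl1b5 had 0 reads in all 4 libraries, where a count of 0 allows up to 3 reads, and Tcl1b2 and Tcl1b4 had 6 reads in a single library each. Pdpk1, the kinase that phosphorylates Akt, had 1016 and 1076 normalized counts in serum/-LIF and 1495 and 1406 with Royalactin (log2 fold change 0.47, limma adjusted p = 0.672). Mtcp1, a relative of Tcl1, had 107 and 128 against 107 and 57.1 (log2 fold change -0.58, limma adjusted p = 0.814).

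Jam2, an immunoglobulin-type adhesion molecule of cell junctions (chromosome 16, 84774368 to 84826173, plus strand), had 97.6 and 169 normalized counts in serum/-LIF and 861 and 902 in the Royalactin replicates. The serum/-LIF replicates differed by 1.73-fold, the Royalactin replicates by 1.05-fold, and the groups did not overlap. Its log2 fold change was 2.77 (standard error 0.39, 95% interval 1.92 to 3.61, limma adjusted p = 0.00501), the smallest adjusted p of the 10 and rank 18 by p among all tested genes. It was called in 12 of 17 alternatives, and the exceptions were the fit without a trend of the variance (adjusted p = 0.216) and the 4 fits that each leave out a library. No exon tile of Jam2 matched another place in the genome.

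Relatives and partners of Jam2 at cell junctions had mostly lower means. Of 14 listed junction genes 13 were tested, 4 with higher and 9 with lower means with Royalactin, and 0 passed the threshold in limma or edgeR, while 3 had an unadjusted p under 0.05 (Jam3, Cldn6 and Cldn7). Jam3, a partner of Jam2 in adhesion, had 352 and 333 normalized counts in serum/-LIF and 131 and 232 with Royalactin (log2 fold change -0.97, limma adjusted p = 0.503). F11r, the gene for Jam1, had the largest positive difference, 0.36 (adjusted p = 0.819), and the claudin gene Cldn7 the most negative, -1.70 (adjusted p = 0.152). The median log2 fold change of the list was -0.44.

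Fbxo15 (chromosome 18, 85104550 to 85150768, plus strand) had 127 and 303 normalized counts in serum/-LIF and 760 and 1105 with Royalactin. The serum/-LIF replicates differed by 2.39-fold and the Royalactin replicates by 1.45-fold, and the lowest Royalactin library was still above the highest serum/-LIF library. Its log2 fold change was 2.22 (standard error 0.43, 95% interval 1.29 to 3.14, limma adjusted p = 0.0400). The call was close to the threshold and depended on the setting. The adjusted p was 0.0612 in edgeR on recovered reads, and in limma 0.0662 after upper-quartile scaling and 0.111 with a pseudocount of 0.1. In limma it was also 0.113 with no filter on low values and 0.413 without the trend of the variance. The lowest, 3.22e-14, came from limma with the replicate block and the GC content and length correction. With 4 libraries that fit leaves little replication within a gene, so this value rests mainly on variance shared across genes. With the replicate block in edgeR the adjusted p was 2.32e-05. No exon tile matched elsewhere.

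The other subunits and partners of SCF ligases are made in most cells. Of 8 tested genes (Skp1a, Cul1, Rbx1, Rnf7, Nedd8, Cand1, Skp2 and Fbxw7), 4 had higher and 4 lower means, 0 passed in limma or edgeR and 0 had an unadjusted p under 0.05. The extremes were Skp2, at 769 and 726 against 1120 and 1112 normalized counts (log2 fold change 0.58, limma adjusted p = 0.605), and Rnf7, with -0.56 (adjusted p = 0.645). The median was -0.02.

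Any library left out of the 4 ended the calls of Tcl1, Jam2 and Fbxo15, since no gene at all passed the adjusted threshold with 3 libraries. Their log2 fold changes kept their sign, from 3.73 to 3.88 for Tcl1, 2.38 to 3.16 for Jam2 and 1.59 to 2.84 for Fbxo15, lowest for Jam2 and Fbxo15 without serum/-LIF replicate 1.

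**Figure D3:**
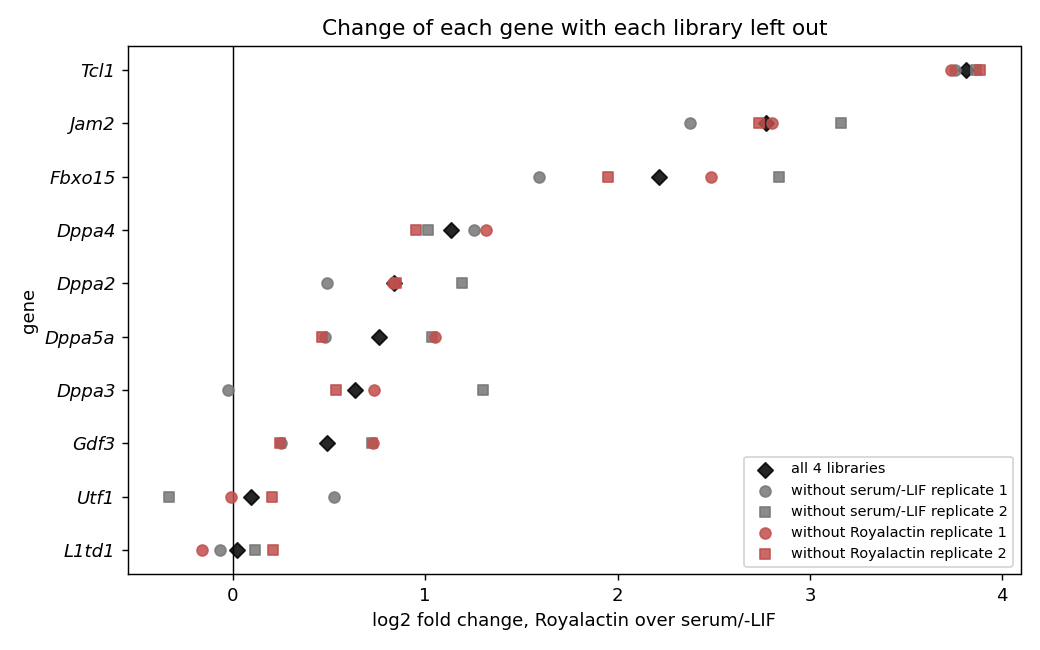
Log2 fold change of each gene with all 4 libraries (black) and after removal of 1 library at a time (grey for a serum/-LIF library, red for a Royalactin library). Tcl1, Jam2, Fbxo15, Dppa4, Dppa2, Dppa5a and Gdf3 stay above 0 in every case, and Dppa3, Utf1 and L1td1 cross 0.

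Dppa2 and Dppa4, the chromatin pair, are neighbours on chromosome 16, 16.2 kb apart on the plus strand (48310590 to 48319836 and 48283848 to 48294405). Dppa4 had 796 and 674 normalized counts in serum/-LIF and 1417 and 1821 with Royalactin. Its log2 fold change was 1.13 (standard error 0.31, 95% interval 0.47 to 1.79), with a limma adjusted p of 0.172 and rank 187 by p. Dppa2 had 559 and 910 normalized counts in serum/-LIF and 1283 and 1271 with Royalactin, and its log2 fold change was 0.84 (standard error 0.33) at a limma adjusted p of 0.413. For both genes the groups did not overlap. The replicates of Dppa2 differed by 1.63-fold in serum/-LIF and by 1.01-fold with Royalactin. Per kilobase of exon, Dppa2 stood at 0.553 and 1.06 times the level of Dppa4 in serum/-LIF and at 0.713 and 0.550 times with Royalactin, so the ratio of the pair overlapped between the groups.

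The calls on Dppa4 and Dppa2 depended on the fit. After a correction for GC content and exon length both passed, with log2 fold changes of 1.26 and 1.01 (limma adjusted p = 0.0206 and 0.0342), and DESeq2 on recovered reads called Dppa4 (adjusted p = 0.0283) but not Dppa2 (0.364). Over 17 alternatives the adjusted p ranged from 2.08e-06 to 1.00 for Dppa4 and from 0.000505 to 1.00 for Dppa2.

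Genes that Dppa2 and Dppa4 are known to activate or prime, at the early cleavage stage and in the germline, were followed as a list. Of 15 listed genes 8 were tested, 3 with higher and 5 with lower means, and 0 passed in limma or edgeR or had an unadjusted p under 0.05. Tcstv1, Tcstv3 and Gm4340 had 0 reads in all libraries. Syce1, a meiotic gene, had 93.6 and 104 normalized counts in serum/-LIF and 70.4 and 105 with Royalactin. Zscan4c, an early-embryo gene, had 10.7 and 83.8 against 0 and 33.7 (log2 fold change -2.42, the most negative), and Zscan4a had the largest positive value, 2.41, from 6 and 1 against 17 and 40 reads. Zscan4 genes are near-identical copies, so their counts are uncertain.

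Dppa3 (chromosome 6, 122576428 to 122580290, plus strand) had 207 and 521 normalized counts in serum/-LIF and 477 and 548 with Royalactin. The groups overlapped, because serum/-LIF replicate 2 was above Royalactin replicate 1. The serum/-LIF replicates differed by 2.51-fold, the widest of the 10, and the log2 fold change of 0.64 had a 95% interval from -0.29 to 1.56 (limma adjusted p = 0.707). Without serum/-LIF replicate 1 it was -0.03, and without serum/-LIF replicate 2 it was 1.30. Utf1 (chromosome 7, 147129688 to 147131011, plus strand) had 860 and 474 normalized counts in serum/-LIF and 735 and 633 with Royalactin. Both Royalactin values lay between the serum/-LIF values. Its log2 fold change was 0.10, with an interval from -0.67 to 0.86.

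Genes around Dppa3 in DNA methylation included 2 that rose. Of 13 listed genes 12 were tested, 9 with higher and 3 with lower means, with a median log2 fold change of 0.73. In limma 2 of 12 passed the adjusted threshold, against 0.331% of all tested genes called higher, and in edgeR 2, against 0.292%. An unadjusted p under 0.05 was reached by 7 of the 12, all higher (4.76% of all tested genes). For 9 both Royalactin libraries lay above both serum/-LIF libraries, against 19.7% of all tested genes. Tet2, an enzyme that oxidizes 5-methylcytosine, rose from 401 and 420 to 2461 and 1847 normalized counts (log2 fold change 2.37, standard error 0.31, limma adjusted p = 0.00333). Zfp57, which keeps methylation at imprinted genes, rose from 425 and 471 to 1547 and 1569 (log2 fold change 1.80, adjusted p = 0.0184). These members act in opposite directions on methylation. Uhrf1, the maintenance factor that Dppa3 binds, had 3169 and 2096 normalized counts in serum/-LIF and 3658 and 3888 with Royalactin (log2 fold change 0.55, limma adjusted p = 0.634). The largest positive difference was that of Prdm14, with 10 and 1 reads in serum/-LIF and 63 and 178 with Royalactin (log2 fold change 4.04, adjusted p = 0.220). Tet3 had the most negative, -0.53 (adjusted p = 0.834).

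The RNA-binding members were the most abundant. Dppa5a (chromosome 9, 78214859 to 78215984, minus strand) had 5380 and 7901 normalized counts in serum/-LIF and 8990 and 13523 with Royalactin. The groups did not overlap, yet the gap between them, from 7901 to 8990, was smaller than the spread within each. Its log2 fold change was 0.76 (standard error 0.34, 95% interval 0.02 to 1.5, limma adjusted p = 0.521). After the GC content and length correction it was 1.00 and passed (adjusted p = 0.0199, in a range from 7.16e-06 to 1.00 over 17 alternatives). L1td1, derived from a LINE-1 open reading frame (chromosome 4, 98393425 to 98405171, plus strand), had 6491 and 7360 normalized counts in serum/-LIF and 7980 and 6174 with Royalactin. The Royalactin libraries lay on both sides of the serum/-LIF libraries, and the log2 fold change was 0.02, with a 95% interval from -0.64 to 0.69.

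In a list of KH-domain relatives of Dppa5a, maternal-complex genes and Dppa1, 5 of 9 had 0 reads in every library, Dppa1 included. Of the 9, 3 were tested. Ooep, 7.93 kb from Dppa5a on the same strand, had 186 and 313 normalized counts in serum/-LIF and 757 and 715 with Royalactin, and its log2 fold change was 1.61 (standard error 0.37) at an adjusted p of 0.102 in limma and 0.111 in edgeR. Khdc3 had 0 reads in each library of serum/-LIF, and 38 and 51 reads with Royalactin, at least 10.3-fold higher than a floor of 3 reads per library (limma adjusted p = 0.401). Tle6 was uneven, with 5.35 and 18.6 normalized counts against 5.03 and 64.0. None of the 3 passed in limma or edgeR, and 2 (Ooep and Khdc3) had an unadjusted p under 0.05. For L1td1, 8 genes of the stem cell RNA programme were tested. In that list 4 were higher and 4 lower, 0 passed in limma or edgeR or at an unadjusted p under 0.05, and the median was 0.01, from Lin28b with -0.57 to Igf2bp2 with 0.81.

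Gdf3 (chromosome 6, 122555421 to 122560105, minus strand) had 710 and 988 normalized counts in serum/-LIF and 995 and 1388 with Royalactin. The groups did not overlap by a margin of only 988 to 995, and the replicates of each group differed by 1.39-fold. Its log2 fold change was 0.49 (standard error 0.32, 95% interval -0.21 to 1.18, limma adjusted p = 0.697). Gdf3 acts with the co-receptor Tdgf1 in the Nodal pathway. A list of 18 genes held that pathway together with Bmp4 and Nog, which belong to BMP signalling. Of the 18, 15 were tested, 6 with higher and 9 with lower means, with a median of -0.10. In limma and in edgeR 0 passed, and 2 had an unadjusted p under 0.05, the secreted inhibitors Lefty1 and Lefty2. Lefty1 had 1161 and 1145 normalized counts in serum/-LIF and 2264 and 2559 with Royalactin (log2 fold change 1.06, limma adjusted p = 0.174), and Lefty2 had 698 and 770 against 1451 and 1646 (1.07, adjusted p = 0.183). Bmp4 had the largest positive difference, 1.44 (adjusted p = 0.735), with 4 reads in serum/-LIF replicate 1 and 43 in replicate 2. Furin, a protease that matures such ligands, had the most negative, -0.76 (adjusted p = 0.738).

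**Figure D4:**
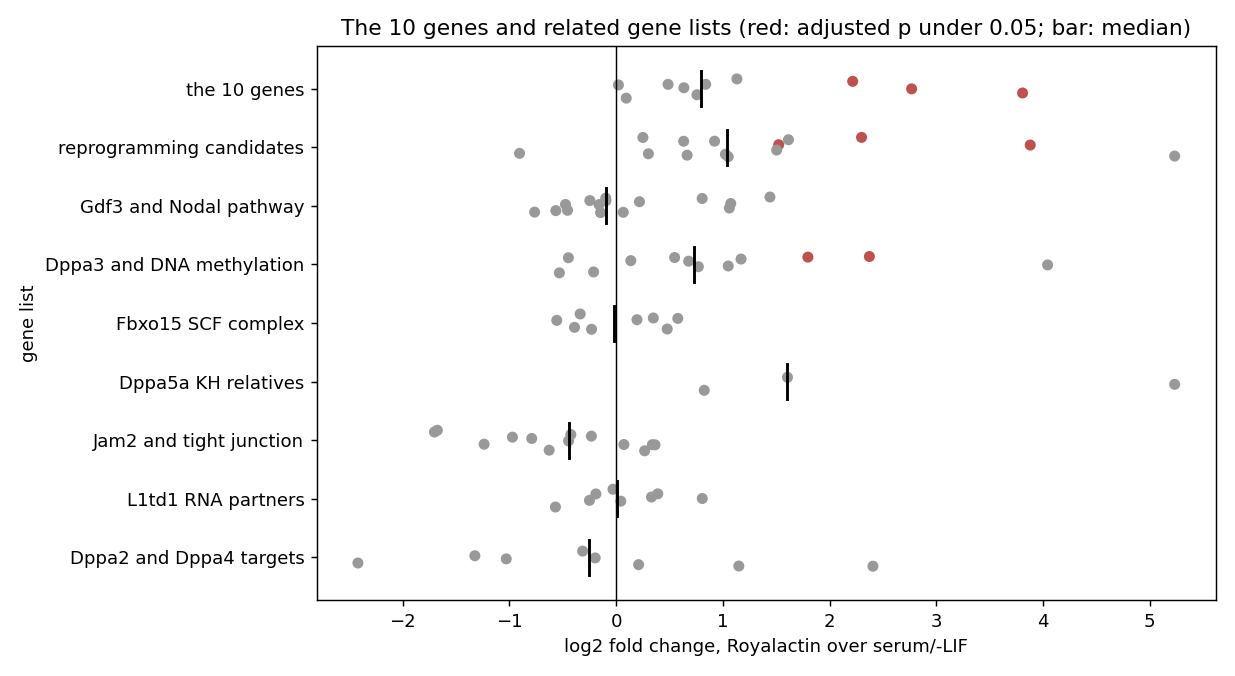
Log2 fold changes of the 10 genes and of the tested genes of 8 related lists, as points, red where the adjusted p-value is under 0.05, with a bar at the median of each list. Red points stand among the 10 genes (3), the reprogramming candidates (3) and the DNA methylation list (2), and the point of Khdc3, drawn in 2 lists at 5.23, is a fitted value against libraries at 0 reads.

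Other candidates of the first reprogramming screens included 3 that rose. Of 15 such genes with values, 14 were tested, 13 with higher and 1 with lower means. The median log2 fold change was 1.04 (the same with Khdc3 at its bound). In limma 3 passed (Sox2, Klf4 and Zfp42), against 0.331% of all tested genes called higher, and in edgeR 2, against 0.292%. An unadjusted p under 0.05 was reached by 8 of the 14, all higher (4.76% of all tested genes). For 10 both Royalactin libraries lay above both serum/-LIF libraries, against 19.7% of all tested genes. Khdc3 had the largest fitted difference and Myc the most negative, with 400 and 177 normalized counts in serum/-LIF and 164 and 123 with Royalactin (log2 fold change -0.90, limma adjusted p = 0.625). This list and the 10 genes both describe the undifferentiated state and were chosen with results of these data known.

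Levels were compared between genes as normalized counts per kilobase of exon. In serum/-LIF the order was Dppa5a (10727 ± 2879 per kilobase, SD, n = 2), L1td1 (2182 ± 194), Utf1 (544 ± 222), Dppa4 (479 ± 56.2), Dppa3 (408 ± 248), Gdf3 (400 ± 92.6), Dppa2 (377 ± 127), Fbxo15 (148 ± 85.5), Jam2 (22.7 ± 8.56) and Tcl1 (10.0 ± 0.568). Neighbours in this order from Utf1 to Dppa2 overlapped in their replicates and cannot be ranked. With Royalactin, Dppa5a (18185 ± 5178 per kilobase, SD, n = 2) and L1td1 (2230 ± 402) again led, followed by Dppa4 (1056 ± 186). Dppa2 (656 ± 4.39), Fbxo15 (640 ± 167), Dppa3 (574 ± 56.4), Gdf3 (561 ± 131) and Utf1 (558 ± 58.8) formed a run whose neighbours overlapped. Jam2 (150 ± 4.90) and Tcl1 (150 ± 11) were last and overlapped. The genes that rose were the 3 with the lowest level per kilobase in serum/-LIF. The serum/-LIF level is also the base of each fold change, so low level and rise are not independent, and this is a description. Fbxo15 came to the level of the Dppa3 and Utf1 run, with a ratio per kilobase to Utf1 of 0.124 and 0.539 in serum/-LIF and 0.871 and 1.47 with Royalactin. Tcl1 stood at 0.0137 and 0.0270 times the level of Utf1 in serum/-LIF and at 0.263 and 0.275 times with Royalactin, and Jam2 at 0.00813 and 0.0124 times that of L1td1 against 0.0583 and 0.0789 times. These ratios are taken within a library, so the size factors do not enter them.

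The 4 Dppa genes had in common that much of their exon sequence recurs in the genome. In tiles of 75 bases, the read length, 76.3% of the exon tiles of Dppa5a, 81.0% of those of Dppa4, 65.1% of those of Dppa2 and 56.9% of those of Dppa3 also matched another place in the mm9 genome with up to 2 mismatches. With 0 mismatches the shares were 53.8% for Dppa5a, 34.2% for Dppa2, 29.5% for Dppa4 and 8.62% for Dppa3. The other places formed 9 loci for Dppa5a, 5 for Dppa2, 3 for Dppa3 and 2 for Dppa4. Among the other 6 genes the share was 0% for Tcl1, Utf1, Fbxo15 and Jam2, 2.02% for Gdf3 and 9.69% for L1td1. Whether reads with several places were counted is not given in the sources used here, so the counts of the Dppa genes are uncertain, and the part of this in their smaller fold changes was not tested. No exon of the 10 genes overlapped an exon of another annotated gene on either strand.

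Dppa3 and Gdf3 lie 16.3 kb apart on chromosome 6, on opposite strands, with Nanog 77.2 kb from Dppa3. Nanog had 859 and 716 normalized counts in serum/-LIF and 1467 and 1738 with Royalactin (log2 fold change 1.02, limma adjusted p = 0.219). Apobec1, 2.96 kb from Gdf3, had 52.2 and 24.8 against 22.1 and 43.4. In all, 58 annotated genes outside the 10 lie within 100 kb of one of them, and 34 of these are in the table and 19 were tested. In limma and in edgeR 0 of the 19 passed, 3 had an unadjusted p under 0.05 (Nanog, Ooep and Inadl), 10 had higher means, and the groups did not overlap for 6 that were higher and 2 that were lower (19.7% and 18.9% of all tested genes). Next to Jam2, Atp5j at 1.94 kb had 911 and 1546 normalized counts in serum/-LIF and 1218 and 1022 with Royalactin, a log2 fold change of -0.09.

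The mean profile of the 10 genes, centred on each gene's mean log2 value, was -0.85 and -0.42 in serum/-LIF replicates 1 and 2, and 0.56 and 0.71 in Royalactin replicates 1 and 2. Among the other tested genes closest to it by Euclidean distance over the 4 libraries were Inpp5k (distance 0.13), Zbtb8a (0.15), Socs3 (0.17) and Nfkbia (0.20). Their log2 fold changes ran from 1.12 (Nfkbia) to 1.42 (Zbtb8a), with limma adjusted p-values from 0.159 to 0.572. With 4 libraries many genes can share such a profile, and the distance is a description.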

How the data were processed

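The 4 RNA-seq libraries, 2 per group, were used, with groups and replicates taken from the sample titles. The 30 ATAC-seq samples of the series were not analysed here. The study's text gives another passage than the labels.

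The authors aligned 75-base reads to mm9 with Tophat, used HTSeq-count for gene counts, and deposited these counts divided by DESeq size factors, a signal proportional to reads. The annotation, strand setting and treatment of reads with several places are not given in the sources used here. In each library 100% of values were whole multiples of a step to within 0.01 of a read, and reads were recovered by division. In Royalactin replicate 1 the step was 1.01.

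Differences were tested with limma 3.58.1 in R 4.3.3 (mean-variance trend, two-sided, Benjamini-Hochberg adjustment) on log2(normalized count + 1) for genes with a mean of at least 10. Alternatives were pseudocounts of 0.1 and 5, other filters and scalings, a GC content and length correction (lowess, span 0.3), the replicate block, each library left out, and, added after seeing the data, edgeR 4.0.16 and DESeq2 1.42.0 on recovered reads. The labels do not say that libraries came from separate cultures, so p-values measure the spread between these libraries, which may be technical.

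Genes and lists were chosen with earlier results of these data known. All 10 genes are named, with, from each list, the called genes and the largest differences in either direction, genes within 100 kb, and the nearest of the profiles. Some genes that this rule takes, and the counts of the list of the Tcl1 family and Akt, are not reported here. Named beyond that rule, after their values were seen, are the genes with an unadjusted p under 0.05 and marker genes at 0 reads. Tfap2c, Dnmt3b, Uhrf1, Syce1, Tcl1b genes, Mtcp1 and Jam3 were also named beyond it. Gene positions, exons and tiles came from GENCODE and the genome of the same build (minimap2 2.31-r1302), with 94.3% of symbols matched. In 5 simulations of this comparison with 200 changed genes among 12570 to 12617, limma called 73.7% of genes changed at least 4-fold, and 3.47% of its calls were unchanged genes. The simulated counts were drawn gene by gene, without a library-wide effect of GC content, length or Rn45s, so these rates may not hold for the real calls. Counting floors cover counting error only, since PCR copies are not independent molecules.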

Additional observations from a re-analysis of the deposited data

How the results depend on the processing

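The number of genes past an adjusted p of 0.05, 64 in limma, was 32 with a pseudocount of 0.1, 34 with no filter on low values, 99 for genes with a mean of at least 50, 249 after the GC content and length correction and 248 in DESeq2. Without the trend of the variance limma called 0, with 1135 genes at an unadjusted p under 0.05, while edgeR called 55. Of the 10 genes, 3 as reported, the number called was 1 with a pseudocount of 0.1 and with no filter (Jam2 in both), 0 without the trend, 6 after the GC content and length correction and 2 in edgeR. The cause was not tested.

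Leaving out any 1 library gave 0 called genes, among all genes and among the 10, with 428 to 2496 genes at an unadjusted p under 0.05. In these fits the lone library of a group is assumed to vary like the other group. At an unadjusted limma p under 0.05 with a 2-fold change 427 to 1925 of all genes were selected, against 927, and 3 to 7 of the 10, against 4, with 7 without serum/-LIF replicate 2 and 1925 without serum/-LIF replicate 1. Signs changed for Dppa3 (-0.027 to 1.30), Utf1 (-0.33 to 0.52) and L1td1 (-0.16 to 0.21), and for no other of the 10.

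With the replicate number as a block, limma called 391 of 12993 genes and 4 of the 10, with Dppa4 added (adjusted p = 0.00835), and 800 genes and 7 of the 10 when the GC content and length correction was also applied. With the block, edgeR called 298 genes and 4 of the 10. With 4 libraries the block leaves little replication within a gene, so these counts rest mainly on variance shared across genes. Deviations of the replicate 1 libraries from their group means correlated at 0.0851 over tested genes. With 2 libraries per group, those of replicate 2 mirror them and add nothing. The labels tie no number to a batch. The main fit was planned without a block, since the study's methods describe none. Rn45s took a larger share of reads in replicate 1 of serum/-LIF and of Royalactin (46.6% and 38.4%) than in replicate 2 (21.6% and 9.08%). Whether same-numbered libraries share a batch was not tested. Depth limits Tcl1 most, with 10 and 14 reads in serum/-LIF.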
